A study of Mus musculus with 6 samples.

Results

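Cytosolic ribosomal protein genes were followed in LβT2 cells, a mouse gonadotrope tumour line of the pituitary, after activin A was added. They were chosen by symbol: every gene with 1 platform symbol made of Rpl or Rps and a number, or Rplp0, Rplp2 or Rpsa, with kinases named Rps6k and pseudogenes left out. This gave 45 of the 18193 genes that the array names by 1 symbol, 21 of the small and 24 of the large ribosomal subunit. The cells were kept without serum for 16 h and then received recombinant human activin A at 30 ng/ml or vehicle, the salt and Tris buffer it was formulated in, and RNA was taken at 1, 2 and 6 h. There was 1 array for each treatment and time, 6 in all, so a single time has no replicate and no test. All cultures were of the same transformed line, without a second line or primary pituitary cells, and the labels describe no repeat cultures.

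The cytosolic ribosome joins a small subunit, which reads the mRNA, to a large subunit, which forms the peptide bond, and each subunit is built from ribosomal RNA and many small proteins in fixed numbers. The mRNAs of these proteins are among the most abundant in growing cells. They usually begin with a C followed by a run of pyrimidines, the 5′ terminal oligopyrimidine (TOP) tract, through which mTOR signalling and the protein LARP1 set their translation. Control of this kind acts on the ribosome loading of an mRNA and need not alter its amount, which is what an array measures. Their promoters are also known for sites of ETS-family factors such as GABP.

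The starts of the genes carried these features. RefSeq windows of assembly GRCm38.p6, from 250 bases before to 50 bases after the annotated start, were found for 40 of the 45 genes. None was listed for Rpl7, Rpl8, Rps14, Rps20 and Rps29. A gene was counted if any of its windows had the feature. At the annotated start, 8 of the 40 genes had a C followed by at least 4 pyrimidines on the sense strand (20%). Of 17492 protein-coding genes with a window 2.67% had one. A run of at least 8 pyrimidines between 25 bases before and 50 bases after the start was in 80% of the ribosomal protein genes. Of all protein-coding genes with a window 30.3% had such a run. The ETS core CGGAAG was present on either strand in 72.5%, against 23.5% of all genes with a window. An overlap of the ETS core with the tract could occur only in the 8 genes with a tract, and 0 of them had it. Among all protein-coding genes 22 of the 467 with a tract had such an overlap, so 0 of 8 does not set the family apart. A start annotated a few bases away from the true one hides a tract, so 8 is a count for these annotations, and a match is a description of the letters only. The 8 with a tract at the start are printed here to show it. Each line gives 15 bases before and 15 bases from the start, with the tract in capitals.

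Rpl14: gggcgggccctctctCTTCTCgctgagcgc
Rpl35: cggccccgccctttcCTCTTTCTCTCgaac
Rpl38: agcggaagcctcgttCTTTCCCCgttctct
Rplp2: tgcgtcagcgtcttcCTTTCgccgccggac
Rps10: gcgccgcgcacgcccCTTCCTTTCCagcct
Rps18: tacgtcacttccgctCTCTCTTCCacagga
Rps27: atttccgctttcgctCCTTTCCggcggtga
Rps6: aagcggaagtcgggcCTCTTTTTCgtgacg

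They lie at chr9:120571502-120571531 (plus strand) for Rpl14, chr2:39005117-39005146 (minus) for Rpl35, chr11:114668565-114668594 (plus) for Rpl38, chr7:141447636-141447665 (plus) for Rplp2, chr17:27635230-27635259 (minus) for Rps10, chr17:33955651-33955680 (minus) for Rps18, chr3:90213634-90213663 (minus) for Rps27 and chr4:86857353-86857382 (minus) for Rps6. The tract ran from 5 bases in Rplp2 to 11 bases in Rpl35. Rpl12 and Rpl41, shown for contrast because they are described in detail further on, had none at their annotated starts, chr2:32961697-32961726 (plus) and chr10:128549154-128549183 (minus).

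Rpl12: ggcggagcaggatccgtcttttcggctttc
Rpl41: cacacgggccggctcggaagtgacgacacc

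Values are the deposited signals of 1 probe set per gene, the brightest, in linear intensity units; differences are log2 ratios of activin over vehicle. Of the 45 genes, 42 passed the filter on low signal (a mean log2 above 7.28, the median of all probe sets, or a signal of 155.2), 20 of the small and 22 of the large subunit. Rpl3l and Rpl39l, paralogues known from muscle and testis, read between 12.3 and 59.3 and between 27 and 117 over the 6 arrays, and the 1 probe set of Rps16 named by a single symbol read between 2.2 and 3.4. Nearest the filter on the inside were Rps27, with a mean log2 of 7.41, and Rpl14, with 7.88. Nearest on the outside were Rpl39l with 6.23 and, far below the filter, Rpl3l with 4.50. Rplp1, Rpl3, Rpl5, Rpl10, Rpl23 and Rpl26 had no probe set with a single symbol and are not analysed here. The chosen probe sets of 34 genes were among the brightest 10% of the 11408 genes tested (a signal of at least 3297), and those of 8 genes were dimmer: Rpl12, Rpl14, Rpl27a, Rpl37, Rpl39, Rps6, Rps25 and Rps27. Brightness here is a property of the probe set and does not rank the genes by mRNA amount. Of the 42 chosen probe sets 30 carry a suffix. In 15 it is _a, for probes shared by transcripts of the same gene. In 13 it is _x and in 2 it is _s, for probes shared with other transcripts or sequences. Another 110 probe sets that name several genes, a ribosomal protein gene among them, were left out. Where probes are shared, near-identical copies and pseudogenes cannot be told apart in these values.

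The trimmed mean of every array was 500. The 3′ to 5′ signal ratio lay between 1.14 and 1.27 for the Actb controls and between 0.787 and 0.836 for the Gapdh controls. The 18S rRNA control at the 5′ end gave a signal of 12201.8 in the activin sample of 1 h, against 610.1 in its vehicle sample, and every 1 h ratio below rests on this pair; its part in them was not tested. All 8 gonadotrope markers passed the filter, with summed signals of 30327.8 to 37080.8 with activin and 29121.7 to 30840.3 with vehicle. Of 8 markers of other pituitary cells, Prl, Gh, Sox2 and Ghrhr did not pass, while Pomc, Crhr1, Tshb and Drd2 did. Drd2 was the brightest of them, at 779.1 to 993.1 over the 6 arrays. The 8 summed to 2286 to 2559.2 with activin and 2143.9 to 2335.6 with vehicle. Of the 8 markers of fibroblasts, endothelium and blood 7 were on the array. Col1a1, Pdgfra and Ptprc were below the filter, and Pecam1, Adgre1, Cdh5 and Col1a2 passed it. The 7 summed to 2325.4 to 2803.7 with activin and 2202.7 to 2419.9 with vehicle. Cdh5 read 959.1 to 1111 and Pecam1 527.3 to 1081.3, beside 668.3 to 1419.7 for the gonadotrope marker Lhb.

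As a group, ribosomal protein genes differed little with activin. Their median log2 ratio was 0.06 at 1 h (−0.01 after quantile normalization, 0.01 with median centring and 0.03 centred on the brightest 10%), 0.12 at 2 h and −0.01 at 6 h (0.00 after quantile normalization and with the median over the probe sets of each gene, 0.01 with probe sets without suffix). Over all genes tested the medians were −0.04, −0.03 and −0.02. At 1 h 33 of the 42 genes were above 0 (78.6%, against 42.3% of all genes and 56.4% of the brightest 10%). At 2 h 38 were (90.5%, against 44.3% and 74.6%), and at 6 h 18 (42.9%, against 45.4% and 46.5%). The 2 h median equals a 1.09-fold difference, and the middle 50% of the genes lay between 0.08 and 0.17. The 34 bright genes were the more uniform: at 2 h 33 of them were above 0 (97.1%, beside 74.6% of the brightest 10%), with Rpl27 alone below, and the SD over these genes was 0.08, against 0.14 over the other genes of the brightest 10%. The brightest 10% is not matched to these 34 genes in signal. On the vehicle 2 h array its median log2 signal was 12.20, against 13.29 for the 34. Whether the shares differ from those of equally bright genes was not tested. The small and large subunits had like medians at 2 h, 0.11 over 20 genes and 0.14 over 22.

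**Figure D1:**
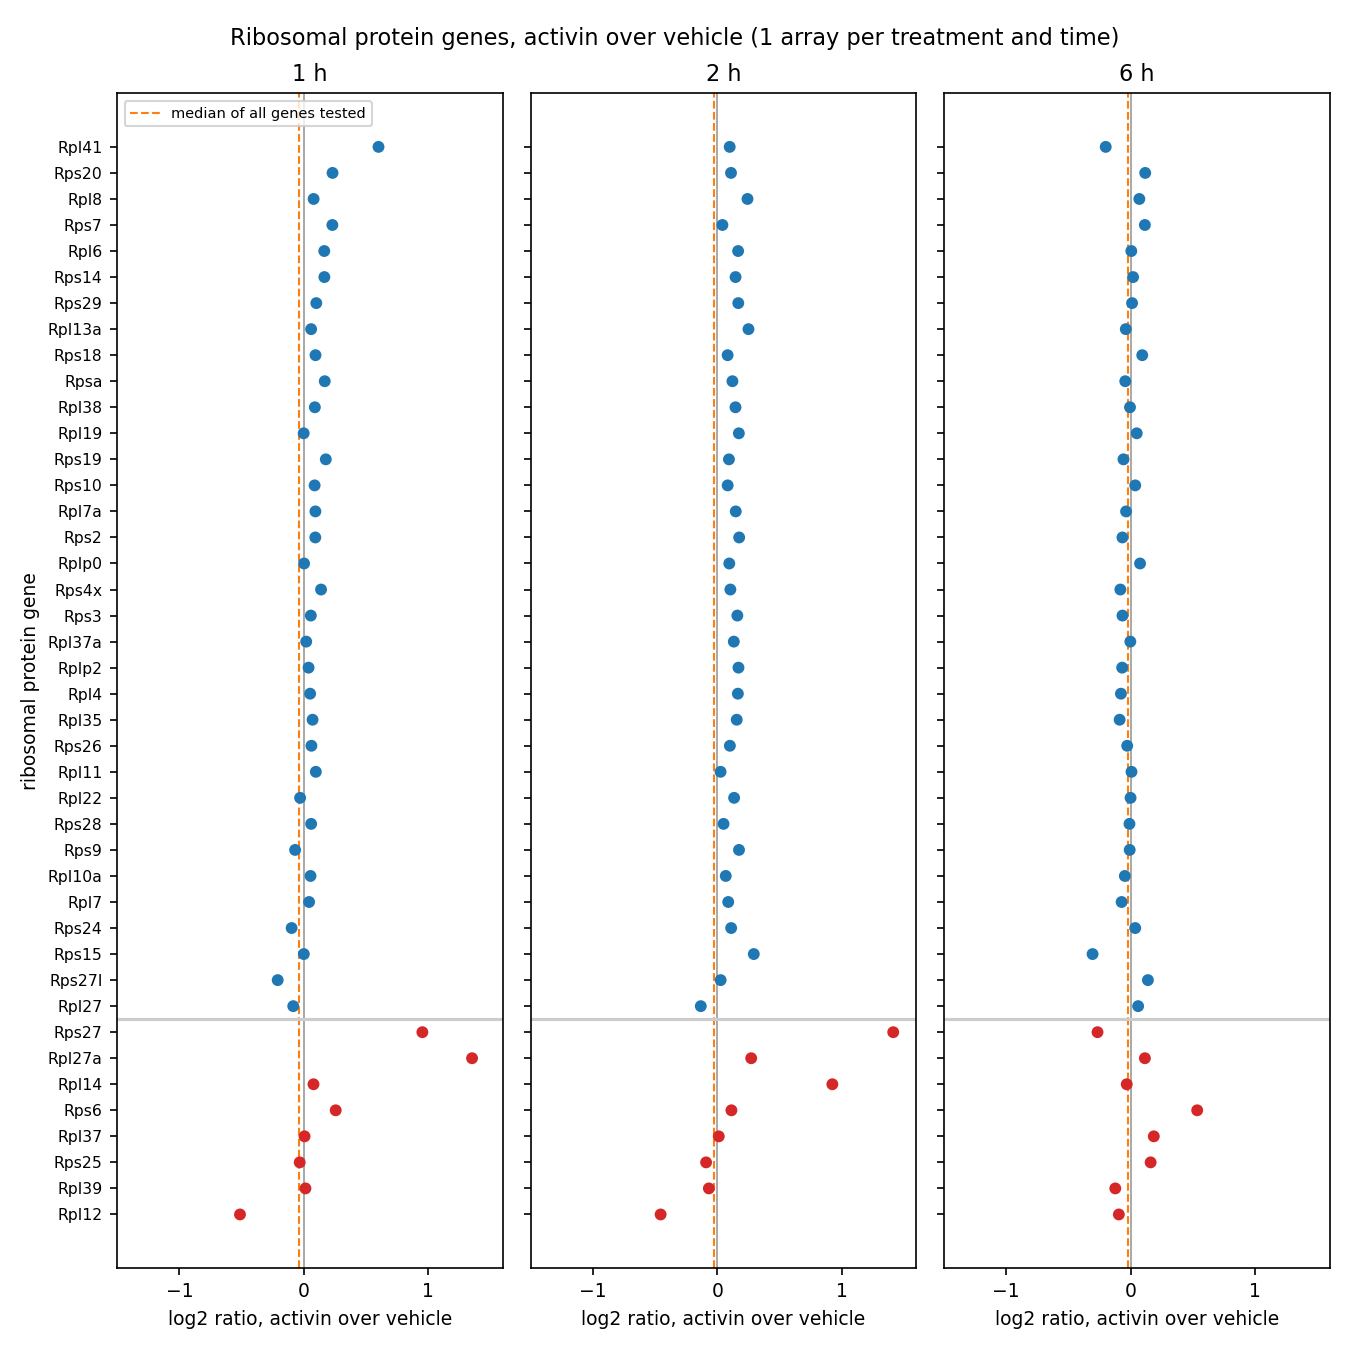
Log2 ratio of activin over vehicle (horizontal axis) for the 42 ribosomal protein genes past the filter (vertical axis), at 1, 2 and 6 h; blue points are the 34 genes with probe sets in the brightest 10%, red points the 8 dimmer genes, the solid line is 0 and the dashed line the median of all genes tested. At 2 h 33 of the 34 blue points lie right of 0, at 6 h 14 do, and the red points spread most; under quantile normalization the 2 h median of the family shrank to 0.01.

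Few members passed a fold threshold of 1.2. At 1 h 3 of 42 were at least 1.2-fold higher with activin (7.14% of them, against 10.4% of all genes tested and 3.68% of the brightest 10%). In the other direction 1 was lower (2.38%, against 17.7% of all genes and 3.16% of the brightest 10%). At 2 h 4 were higher (9.52%, near the 10% of all genes, with 5.61% of the brightest 10%). There 1 was lower (2.38%, against 15.3% and 1.49%). At 6 h 1 was higher (2.38%, against 14% and 4.82%) and 2 were lower (4.76%, against 16.3% and 4.12%). The limma test of the ratio averaged over the times, with time as a block and Benjamini-Hochberg adjustment over all genes at 0.05, called 0 of 42, as it called 0% of all genes; the smallest adjusted p was 0.444 among ribosomal protein genes and 0.305 among all genes. At an unadjusted p under 0.05 limma had 1 member higher, Rps6 (4.15% of all genes and 3.24% of the brightest 10%). It had 1 lower, Rpl12 (6.32% and 0.613%). These p-values measure the spread between 3 pairs of arrays only.

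Shares by direction stood further from those of all genes than from those of the brightest 10%. Activin was above vehicle at all 3 times for 13 of 42 genes, 31% of them, against 12.1% of all genes and 24.5% of the brightest 10%. Among the 34 bright genes the share was 29.4%. Activin was below vehicle at all 3 times for 1, Rpl12, against 22.1% of all genes and 9.2% of the brightest 10%. All 3 activin arrays exceeded all 3 vehicle arrays for 6 genes (Rpl11, Rps6, Rps7, Rps18, Rps20 and Rps29). That is 14.3%, against 5.33% of all genes and 10.8% of the brightest 10%. This holds for the chosen probe sets. In the other probe sets past the filter the groups overlapped for Rps7, Rps18 and Rps29, and stayed apart for Rps20. For 0 of the 42 did all 3 activin arrays lie below all 3 vehicle arrays. Of all genes 9.7% had this pattern, and of the brightest 10% 3.16% had it. None of the 42 passed the 1.2-fold threshold in 1 direction at every time. Of all 11408 genes tested 141 did so higher and 138 lower, and of the 1141 in the brightest 10% 3 and 0. So 0 of 42 does not set the family apart.

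Other bright probe sets were also high on the activin 2 h array. With 1 array per treatment at 2 h, the array and the treatment cannot be told apart. The activin 2 h array gave the highest of the 6 signals for 28 of 42 ribosomal protein genes, 66.7%, against 50.8% of the brightest 10% and 17.4% of all genes tested. For the 1107 genes of the brightest 10% outside the family, the 2 h median was 0.06 on the log2 scale. The probe sets that the manufacturer placed as controls read alike: the Actb controls had log2 ratios of 0.19, 0.23 and 0.06 at 2 h for the 5′, middle and 3′ regions, and the Gapdh controls 0.11, 0.15 and 0.15. The 99th percentile of signal was 7123 on the activin 2 h array, against 6683 on the vehicle 2 h array, although both were scaled to the same trimmed mean. The family's 2 h median was 0.03 when arrays were centred on the brightest 10% of genes, 0.03 after cyclic loess (both chosen after seeing the data) and 0.01 after quantile normalization, but 0.20 when arrays were centred on their medians.

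Vehicle arrays of different times, which differ in no treatment, also differed. The members' median log2 ratio was 0.10 for vehicle at 2 h over vehicle at 1 h. Of the 34 bright genes 33 were above 0 there (97.1%, against 76.0% of the brightest 10% and 51.0% of all genes). The members' median was 0.07 for vehicle at 6 h over vehicle at 1 h, and −0.03 for vehicle at 6 h over vehicle at 2 h. The activin arrays differed by 0.15 for 2 h over 1 h and by −0.17 for 6 h over 2 h. The vehicle 1 h array gave the lowest signal for 20 of 42 genes, against 268 of the 1141 in the brightest 10% and 1275 of all 11408. Averaged over the times, the members' median log2 ratio of activin over vehicle was 0.06. Above 0 were 37 of 42 genes (88.1%, against 40.3% of all genes and 61.9% of the brightest 10%). Leaving out the 2 h arrays gave a median of 0.03, leaving out the 6 h arrays gave 0.11, and quantile normalization gave −0.00.

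**Figure D2:**
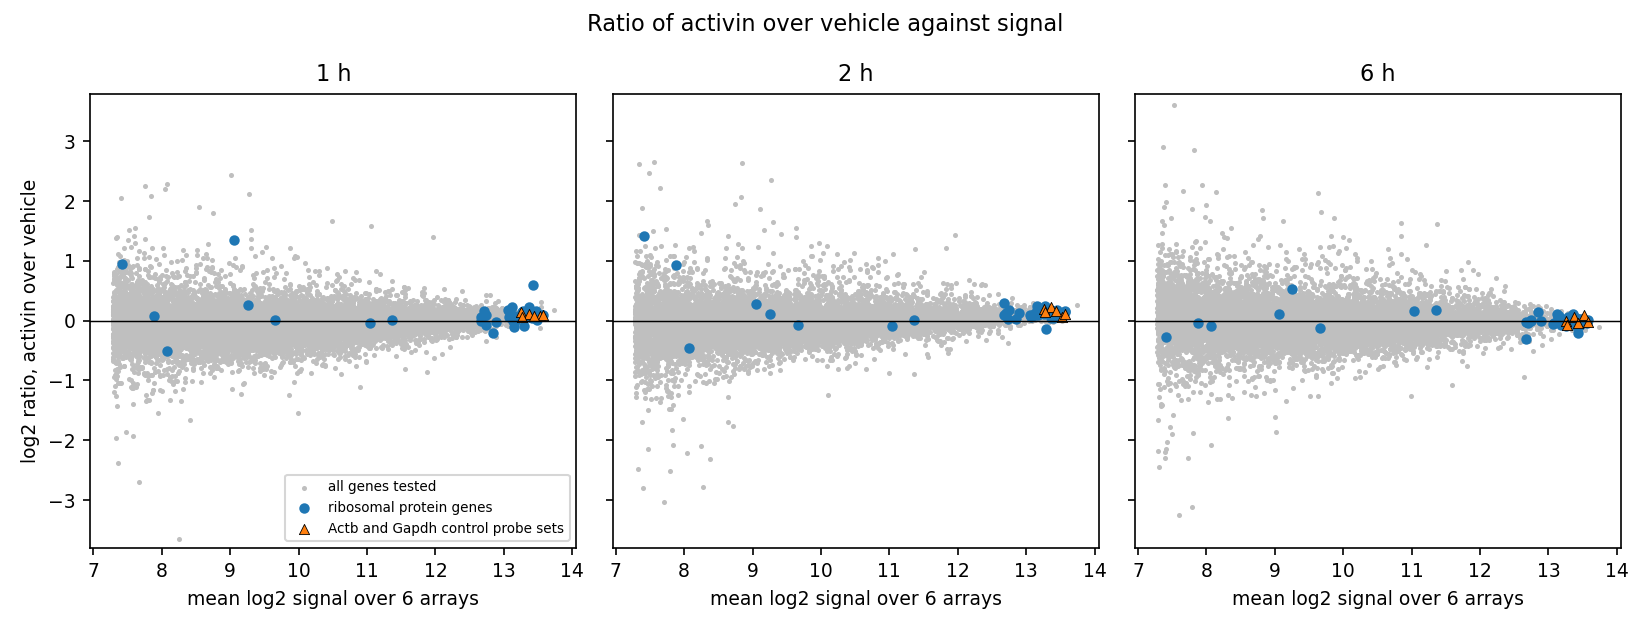
Log2 ratio of activin over vehicle (vertical axis) against mean log2 signal over the 6 arrays (horizontal axis) at 1, 2 and 6 h; grey points are the 11408 genes tested, blue points the 42 ribosomal protein genes and orange triangles the 6 Actb and Gapdh control probe sets. At 2 h the blue points and the triangles at the bright end lie mostly just above 0, and the 34 bright genes have a median of 0.13.

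**Figure D3:**
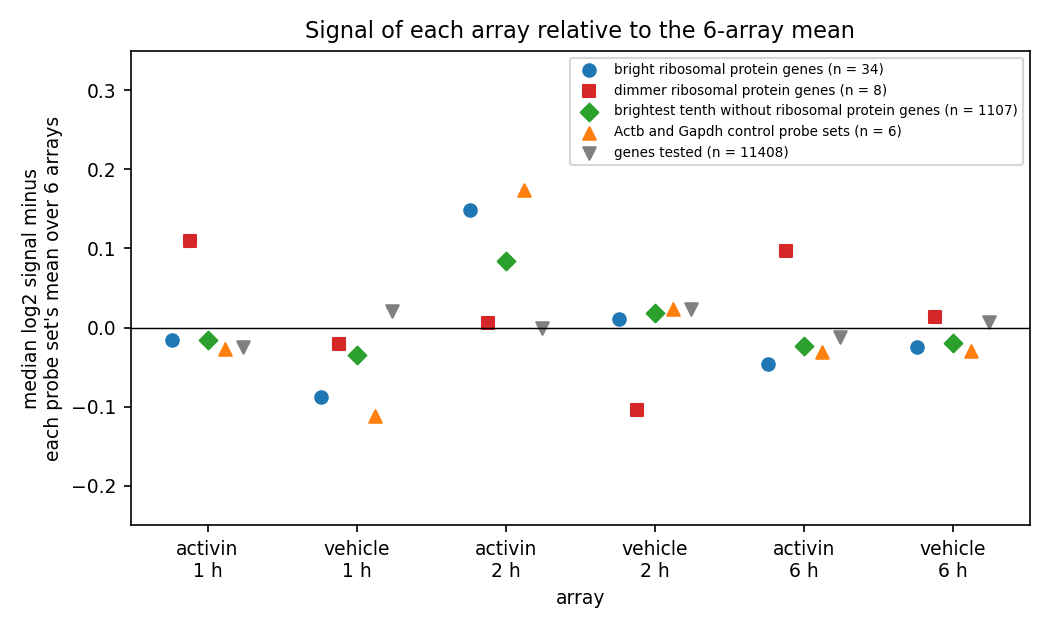
Median over probe sets of log2 signal minus each probe set's own mean over the 6 arrays (vertical axis), for each array (horizontal axis); symbols stand for the 34 bright and the 8 dimmer ribosomal protein genes, the 1107 other genes of the brightest 10%, the 6 Actb and Gapdh control probe sets and the 11408 genes tested. On the activin 2 h array the bright ribosomal protein genes stood at 0.15, the controls at 0.17, the other bright genes at 0.08 and all genes at −0.00.

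The acidic stalk of the large subunit, which recruits the elongation factors, was represented by Rplp0 and Rplp2. Rplp0, the stalk base, read 8681.1, 9979.2 and 8946.1 with activin at 1, 2 and 6 h, against 8673.1, 9333.5 and 8488.1 with vehicle. Activin was the higher at each time by at most 0.10 on the log2 scale, and the mean ratio was 0.06 ± 0.08 (moderated SE). Rplp2 read 10855.1, 12650.6 and 10910.9 with activin, against 10577.2, 11242.0 and 11437.8 with vehicle. Its groups overlapped, and its mean ratio was 0.05 ± 0.09. The sign of the mean turned in 1 of 14 alternatives for Rplp0 and in 3 of 13 for Rplp2.

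Rpl12, whose protein sits at the foot of the stalk, had the lowest mean ratio of the 42 genes past the filter. It read 192.2, 217.8 and 323.1 with activin at 1, 2 and 6 h, against 274.4, 298.6 and 345 with vehicle. Activin was lower at all 3 times, yet the activin 6 h signal exceeded the vehicle signals of 1 and 2 h. The mean ratio was −0.35 ± 0.12, or 0.782-fold, with a limma adjusted p of 0.444 and an unadjusted p of 0.0273; over 13 alternatives it stayed between −0.48 and −0.27. The signal was also higher at later times in both treatments, with 0.54 ± 0.14 for 6 h over 1 h (limma adjusted p = 0.481).

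Rpl27a, a protein of the large subunit, had its widest ratio at 1 h. It read 1270.1, 546.4 and 396.6 with activin, against 497.9, 452.3 and 366.3 with vehicle. The activin 1 h array stood apart, 2.55-fold above its vehicle, while the ratios at 2 and 6 h were 1.21-fold and 1.08-fold. Its mean ratio of 0.58 ± 0.26 had a limma adjusted p of 0.507 and lay between 0.19 (1 h arrays left out) and 0.81 (6 h arrays left out) over 14 alternatives. For 6 h over 1 h, both treatments together, it had −1.06 ± 0.32 (limma adjusted p = 0.481). This high signal was on the same array as the bright 18S control.

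Rps27, a zinc-finger protein of the small subunit, had the highest mean ratio of the 42. It read 232.9, 247 and 177.8 with activin, against 120.4, 92.7 and 213.8 with vehicle. The ratios were 1.93-fold and 2.67-fold at 1 and 2 h and 0.832-fold at 6 h, and the vehicle signals of 1 and 2 h were below the filter value. The mean ratio of 0.70 ± 0.33 had a limma adjusted p of 0.518; leaving out the 2 h arrays gave 0.34, and leaving out those of 6 h gave 1.18. Its paralogue Rps27l, a p53 target, went the other way in time with a bright probe set: 6323.7, 7776.8 and 8004.8 with activin, against 7317.8, 7632 and 7270.2 with vehicle. Its log2 ratios were −0.21, 0.03 and 0.14 and its mean was −0.01 ± 0.10.

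Rpl14, a large-subunit surface protein, read 286.8, 269.2 and 237.5 with activin, against 271.9, 141.8 and 242.7 with vehicle. A single low vehicle signal at 2 h, under the filter value, set its 1.9-fold ratio there, and the other times were at 1.05-fold and 0.979-fold. The mean ratio was 0.32 ± 0.21 (limma adjusted p = 0.614), with 0.02 when the 2 h arrays were left out and 0.50 when those of 6 h were.

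Rps6, the substrate of the S6 kinases below mTOR, read 697.8, 598.6 and 743.7 with activin, against 584.6, 553.2 and 513.3 with vehicle. The groups did not overlap, by 598.6 against 584.6. The ratios were 1.19-fold, 1.08-fold and 1.45-fold, with a mean of 0.30 ± 0.11, a limma adjusted p of 0.461 and an unadjusted p of 0.0429; without the 6 h arrays the mean was 0.18. It was the only member at least 1.2-fold higher at 6 h. A second Rps6 probe set, below the filter, had 0.49, 0.43 and −0.19, another sign at 6 h.

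**Figure D4:**
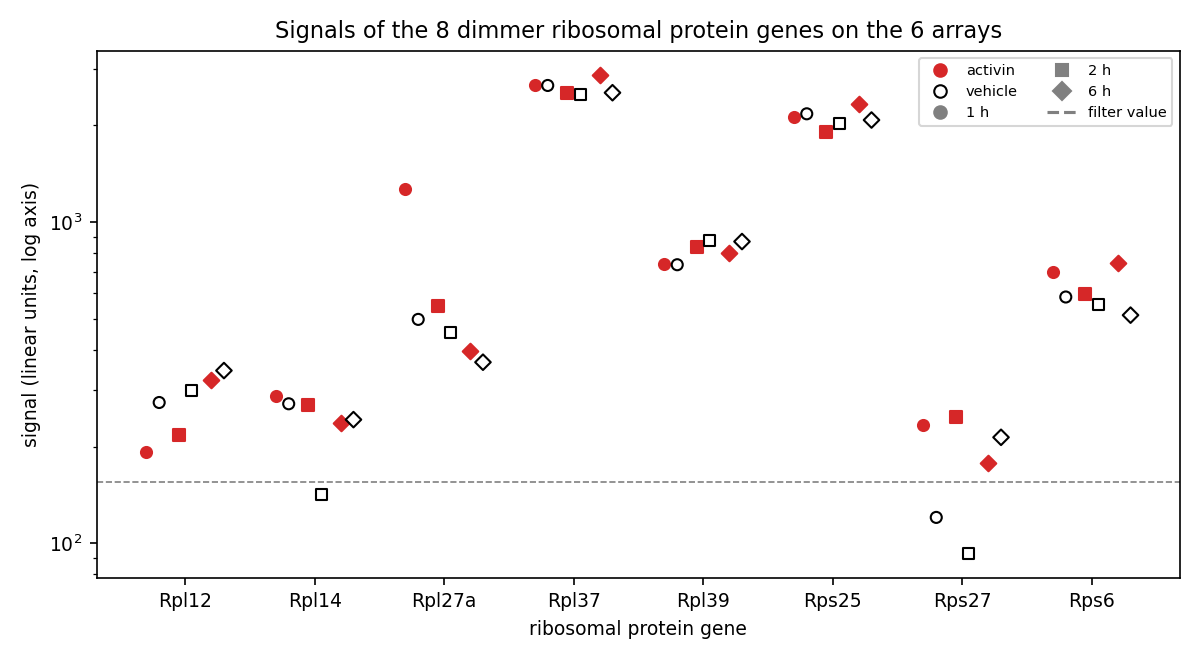
Signals of the 8 dimmer ribosomal protein genes (horizontal axis) on a log axis (vertical axis, linear signal units); filled red symbols are activin, open symbols vehicle, circles 1 h, squares 2 h and diamonds 6 h, and the dashed line is the filter value of 155.2. Rps27 at 1 and 2 h, Rpl14 at 2 h and Rpl27a at 1 h show the widest gaps, and Rpl37, Rpl39 and Rps25 the narrowest.

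The remaining dim probe sets showed small ratios. Rpl39, which lines the peptide exit tunnel, read 743.1, 837.2 and 798.8 with activin, against 736.8, 877.3 and 870 with vehicle, a mean ratio of −0.06 ± 0.08. Rps25, which some viral internal ribosome entry sites require, read 2123.5, 1901.9 and 2324.2 with activin, against 2174, 2023.9 and 2079.2 with vehicle, a mean of 0.01 ± 0.09. The sign of Rps25 turned in 2 of 14 alternatives. Rpl37 lay between 0.01 and 0.19 at the 3 times.

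Rps20, a protein of the small subunit's head, was above vehicle at each time. It read 9489.5, 9437.1 and 9281.1 with activin, against 8091.1, 8741.8 and 8557.1 with vehicle. Every activin signal exceeded every vehicle signal, and the mean ratio was 0.15 ± 0.08, or 1.11-fold (limma adjusted p = 0.575). It stayed between 0.10 and 0.17 over 13 alternatives, quantile normalization among them. Rps18, which contacts the large subunit, also had activin above vehicle on every array, at 10778, 10815.2 and 10871.4 against 10104, 10209.1 and 10190.1. Its mean was 0.09 ± 0.08, but another of its bright probe sets had −0.19, 0.02 and −0.07, and with the median of its probe sets the mean was −0.08.

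The chosen probe set of Rps15 had differences of opposite sign at 2 and 6 h. It read 5665.3, 7874.3 and 6200.5 with activin, against 5667.9, 6425.1 and 7664.2 with vehicle. The log2 ratio at 1 h was −0.00, and the ratios were 1.23-fold at 2 h and 0.809-fold at 6 h, so that the mean was −0.00 ± 0.14 (−0.15 with the 2 h arrays left out, 0.15 with those of 6 h left out). A second Rps15 probe set past the filter had log2 ratios of 0.04, 0.09 and 0.01, with no such opposition. The 6 h ratio of the chosen one made it 1 of the 2 members at least 1.2-fold lower there, with Rps27.

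Rpsa, also known as the laminin receptor precursor, read 7096, 7416.9 and 6203 with activin, against 6318.4, 6816.4 and 6391.2 with vehicle, a mean ratio of 0.08 ± 0.09. Rps3, at the mRNA entry channel, read 10350.8, 11901.1 and 10220.5 with activin, against 9960.2, 10641.4 and 10694.2 with vehicle, a mean of 0.05 ± 0.09. Both were higher at 1 and 2 h and lower at 6 h, with overlapping groups. The sign of the mean turned in 3 of 14 alternatives for Rps3 and in 0 of 14 for Rpsa.

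Rps14, whose loss marks the 5q- syndrome in humans, and Rps19, the gene most often mutated in human Diamond-Blackfan anaemia, had mean ratios of 0.11 ± 0.09 and 0.07 ± 0.09. Rps14 read 11637.3, 12526.2 and 11100.6 with activin, against 10385, 11313.3 and 10949.4 with vehicle. Rps19 read 9076.7, 9001.3 and 8210.6 with activin, against 8035.2, 8434.7 and 8544.9 with vehicle. Rps14 was above vehicle at all 3 times and Rps19 at 1 and 2 h; the limma adjusted p was 0.675 for Rps14 and 0.815 for Rps19.

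Several large-subunit proteins have known roles outside the ribosome. Rpl11, which binds Mdm2 when ribosome assembly fails, read 7107.8, 6929.4 and 6805.4 with activin, against 6651.2, 6802.5 and 6772.3 with vehicle. All 3 activin signals exceeded all 3 vehicle signals by narrow margins, and the mean was 0.04 ± 0.08 (−0.00 after quantile normalization). Rpl13a, which in human monocytes leaves the ribosome to silence inflammatory mRNAs, read 9665.3, 11319.3 and 9884.9 with activin, against 9285.4, 9513.7 and 10153.9 with vehicle, a mean of 0.09 ± 0.10. Its ratio at 2 h was 1.19-fold, or 0.25 on the log2 scale, and its other 3 probe sets past the filter had 0.09, −0.11 and 0.07 there.

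Rpl22, an RNA-binding protein needed in mouse for αβ T-cell development, read 7094.4, 8348.4 and 7679.7 with activin, against 7246.1, 7601.1 and 7681.7 with vehicle. Its 3 probe sets had mean ratios between −0.07 and 0.18, so they disagree in sign. The mean of the chosen one, 0.03, turned sign in 4 of 14 alternatives. Rpl27 read 9620.4, 9752.4 and 10164.9 with activin, against 10209.6, 10689.6 and 9748.9 with vehicle, a mean of −0.05 ± 0.09; another of its probe sets had 0.13. Rpl41, the smallest protein of the ribosome, read 11623.3, 12954.6 and 10571.9 with activin, against 7671.9, 12087.6 and 12144.9 with vehicle. Its 1.52-fold ratio at 1 h went with a low signal on the vehicle 1 h array, and its second bright probe set gave 0.17 there on the log2 scale, against 0.60 for the first. The mean ratio of 0.17 ± 0.17 became −0.05 when the 1 h arrays were left out and 0.35 when those of 6 h were.

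The other 19 bright genes are those left after the members with the lowest mean ratios were named, among them every member with a mean below 0. Rpl27, the only bright gene below 0 at 2 h, was also named. That all 19 had a mean and a 2 h ratio above 0 therefore follows from this choice. Over all 34 bright genes 31 had a mean above 0 (91.2%, against 61.9% of the brightest 10%). The means of the 19 ran from 0.02 in Rps24 to 0.13 in Rpl8, whose proteins belong to the small and the large subunit. Rpl8 read 9050.9, 10934.8 and 8841.9 with activin, against 8575.4, 9240.5 and 8423.2 with vehicle, above its vehicle at each time. Rps7 read 11197.5, 10981.9 and 10848.4 with activin, against 9556.5, 10671.6 and 10020.4 with vehicle, without overlap of the groups. In a second Rps7 probe set past the filter the groups overlapped. That one read 8394.6 with activin at 2 h, against 8646.8 with vehicle, a log2 ratio of −0.04. None of these 19 had a limma adjusted p under 0.05.

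Over the 19 genes with several probe sets past the filter, the probe sets of 11 agreed within 0.1 in mean log2 ratio. The widest range was 0.42, in Rpl41, followed by 0.25 in Rpl22, 0.18 in Rpl27 and 0.17 in Rps18. For these 4, and also for Rpl13a, Rps3, Rps9, Rps24 and Rpl7, the range between probe sets was larger than the moderated SE of the chosen one. Over all 82 member probe sets past the filter, 60 had activin above vehicle at 1 h, 69 at 2 h and 47 at 6 h. Several of them read the same gene, so they are not independent. The matching shares over all probe sets past the filter were not computed.

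No member differed between times past the test. For 6 h over 1 h, limma called 0 of 42 and 0% of all genes at an adjusted p under 0.05. At an unadjusted p under 0.05 it had 2 of 42, Rpl12 and Rpl27a, against 9.72% of all genes and 1.4% of the brightest 10%. For 2 h over 1 h, 0 of 42 had an unadjusted p under 0.05, against 6.78% of all genes and 1.14% of the brightest 10%. The median of the 2 h over 1 h difference was 0.13 over the family and 0.08 over the brightest 10% of genes. It was 0.09 over the small-subunit and 0.15 over the large-subunit genes. The family's median for 6 h over 1 h was 0.01.

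Genes with and without a TOP tract at the annotated start were set side by side. The 8 with one had medians of 0.09, 0.15 and −0.02 at 1, 2 and 6 h, and the 29 without had 0.05, 0.11 and −0.01. These classes rest on the annotated start, so a tract hidden by it counts as absent. With a run of at least 8 pyrimidines near the start (30 genes) the medians were 0.06, 0.12 and −0.02. Without such a run (7 genes) they were 0.06, 0.11 and −0.01. With the ETS core (27 genes) the medians were 0.07, 0.12 and −0.01, and without it (10 genes) 0.03, 0.11 and −0.02. The difference between the classes was not tested.

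The rest of the translation pathway was read from 4 lists. Of 19 other mRNAs known to carry TOP tracts, mostly elongation and initiation factors, 16 were tested and 0 passed limma. A mean ratio above 0 was found in 13, beside 40.3% of all genes and 61.9% of the brightest 10%. The medians of the 16 were 0.07, 0.08 and −0.00 at 1, 2 and 6 h. Eef1a1, which brings aminoacyl-tRNA to the ribosome, read 12367.7, 13623 and 11796.3 with activin, against 11552.7, 12260.5 and 12119.8 with vehicle. Eif3l, a subunit of initiation factor eIF3, had the list's highest mean ratio, 0.17 ± 0.08 (limma adjusted p = 0.533), and Hnrnpa1, an RNA-binding protein, the lowest, −0.13 ± 0.10 (adjusted p = 0.665).

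Of 31 ribosome assembly genes, all tested, 0 passed and the median ratio was 0.02. Above 0 were 17 of them, beside 40.3% of all genes. Rrp9, a protein of the U3 snoRNP that processes pre-rRNA, read 525.2, 545.1 and 419.4 with activin, against 738, 725.7 and 681.6 with vehicle. Its groups did not overlap, and its mean ratio was −0.53 ± 0.10 (limma adjusted p = 0.354). Nop14, which acts in assembly of the small subunit, had 0.25 ± 0.09 (adjusted p = 0.449). The 10 genes of RNA polymerase I and its factors had a median of −0.03 and 0 passed.

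Of 16 regulators of ribosome production and TOP translation 14 were tested and 0 passed. Myc, an activator of ribosomal genes, read 163.6, 187.2 and 170.6 with activin, against 338.6, 323.8 and 300.8 with vehicle, while its relative Mycn read 549.3, 654.5 and 587.1 with activin, against 475.5, 281.3 and 330.9 with vehicle. The groups did not overlap in either gene, and the mean ratios were −0.89 ± 0.10 and 0.75 ± 0.20 (limma adjusted p = 0.354 and 0.416). Larp1 had a mean of 0.13 ± 0.09 and Tsc2, an inhibitor of mTOR signalling, −0.23 ± 0.09, neither past the test.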

How the data were processed

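RNA of LβT2 cells was measured on 6 mouse genome arrays. The deposited values are linear intensity, 1 signal per probe set, made with GCOS 1.4 per the submitters' processing notes; no source used here gives its settings. Without raw scans, background correction and probe summary were not varied. The authors' deposited fold-change tables were not used. Precision is limited by how few arrays there are.

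Of 45101 probe sets, 64 controls were set aside and 34945 had 1 gene symbol. Signals were taken to log2 with a pseudocount of 0, filtered at the median and reduced to the brightest probe set per gene (11408 genes). One symbol that matched the rule is a pseudogene in RefSeq and was left out. The model was limma 3.58.1 in R 4.3.3, additive in treatment and time, two-sided, with 2 residual and 3.06 prior degrees of freedom, tested on simulated data. Figures used matplotlib 3.10.9.

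Genes named with values were the 6 highest and 6 lowest mean ratios, fixed genes of known role, those nearest the filter and those with discordant probe sets; others are illustrations chosen after their values were seen. Members and lists were chosen with earlier results of these data known. The 15 alternatives were other filters, scalings, pseudocount, probe sets, fold thresholds, priors, no time block and each time left out.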

Additional observations from a re-analysis of the deposited data

Results flagged for a closer look

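The controls for 18S ribosomal RNA, which are outside the comparisons above, read higher with activin than with vehicle at 1 h. The 5′ control read 12201.8 with activin, against 610.1 with vehicle, the middle control 1388.8 against 356.8 and the 3′ control 894.3 against 297.6. At 2 h the 5′ control read 1171.1 with activin, against 642.8 with vehicle. No cause was tested.

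In the chosen probe sets of Rps15 and Rps27 the ratio had different signs at different times; a second Rps15 probe set had 0.04, 0.09 and 0.01 at 1, 2 and 6 h. The highest and lowest log2 ratio over the 3 times lay 0.599 apart in Rps15 and 1.68 apart in Rps27. The difference between times was not tested, as there is 1 array for each treatment and time.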

How the results depend on the processing

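The fit paired activin with vehicle by time, and 0 members and 0 genes were called without this block as well. Members called stayed at 0 in every setting run. Over all genes limma called 3 with the filter at the 70th percentile and 9 with a trended robust prior; leaving out a time gave 0 to 0. The median log2 ratio was −0.0141 at 1 h under quantile normalization, 0.0104 with median centring and 0.0336 centred on the brightest 10%. At 2 h it was 0.0303 centred on the brightest 10%, 0.0333 after cyclic loess, 0.201 with median centring and 0.00792 under quantile normalization. The time average was −0.00251 under quantile normalization, and 0.026 to 0.108 when a time was left out. Counts at 1.2-fold are small. Higher at 1 h: 1 among the 34 bright genes. Higher at 2 h: 2 at 1.5-fold, 2 centred on the brightest 10%, 2 with the stricter filter and 1 among bright genes. Higher at 6 h: 0 at 1.5-fold and 0 among bright genes. Lower at 1 h: 0 at 1.5-fold, 0 with the stricter filter, 0 among bright genes, and 2 with median centring, without a filter and under quantile normalization. Lower at 2 h: 0 at 1.5-fold, 0 with the stricter filter, 0 among bright genes and 2 without a filter. Lower at 6 h: 0 at 1.5-fold, 4 without a filter, and 1 each with the stricter filter, the median of probe sets, bright genes and a pseudocount of 50. Of 22 named members 11 kept their sign in every alternative. Centring on the brightest 10%, loess and the bright genes alone were chosen after seeing the data. With 1 array per treatment and time, ratios near the spread between vehicle arrays are not resolved, and dim probe sets near the filter give the least certain ratios.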
